A study of Mus musculus with 9 samples.

Results

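The 10 genes described here encode amino acid transporters of the plasma membrane and were chosen by name, with earlier results of these data known. They are the rows of a raw count table of 20189 genes whose symbol is Slc7a1, Slc7a3, Slc7a5, Slc7a6, Slc3a2, Slc1a4, Slc1a5, Slc38a1, Slc38a2 or Slc6a9. All 10 were found and all passed the filter of at least 1 count over the libraries. They were measured by RNA sequencing in E14 cells, a wild-type line of mouse embryonic stem (ES) cells, that were starved of threonine (Thr) or cysteine (Cys) for 3 h or left unstarved, with 3 libraries per group. All cells came from a single line grown on gelatin, with leukemia inhibitory factor and β-mercaptoethanol in the growth medium. Which medium was used for the Thr and Cys starvations of the sequenced cells is not stated in the sources used here. The comparisons asked how the RNA of these importers and exchangers differed from unstarved cells when an amino acid was missing from the medium, and whether it differed between the 2 missing amino acids.

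Amino acids cross the plasma membrane through solute carriers that differ in substrate and in driving force. Facilitative carriers such as the SLC7 cationic transporters follow the membrane potential, sodium-coupled carriers of the SLC38 and SLC6 families accumulate small neutral amino acids against their gradients, and exchangers such as SLC7A5, SLC1A4 and SLC1A5 trade an internal amino acid for an external one. Light chains such as SLC7A5 and SLC7A6 reach the surface only when bound to a glycoprotein heavy chain, SLC3A2, also called CD98 or 4F2hc. Several transporter genes are known targets of ATF4, the transcription factor of the integrated stress response, which binds a DNA element called CARE (C/EBP-ATF response element). Thr itself is a substrate of the exchangers SLC1A4 and SLC1A5, and Cys of SLC1A4.

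The total count per library ranged from 48763102 to 74962733, and each transporter held between 492 and 52237 counts in a library. Levels are in CPM, the count of a gene relative to the library total after TMM scaling, and changes as log2 fold changes from edgeR's quasi-likelihood test with Benjamini-Hochberg adjustment over the 20143 genes tested, called at an adjusted p of 0.05 or less. The common coefficient of variation between replicates was 3.53%, so that changes of a few percent could be called. All 9 ES cell markers were detected, with a summed level of 4209 to 4246 CPM in unstarved, 4234 to 4310 CPM in Thr-starved and 3994 to 4036 CPM in Cys-starved libraries. Single markers changed within these sums. Klf4 rose with Thr starvation (log2 fold change 0.85, adjusted p = 1.2e-18 by edgeR). Not all markers rose with it. The marker lowest in Thr-starved libraries was below the lowest marker of unstarved ones. The lowest mean of any marker was 147.9 CPM in unstarved, 95.1 CPM in Thr-starved and 155.1 CPM in Cys-starved libraries. The sum of 9 markers of differentiated lineages was 24.1 to 24.7, 29.8 to 32.9 and 30.6 to 31.1 CPM in these groups, and that of 6 fibroblast markers 15.2 to 15.5, 10.1 to 11.4 and 13.8 to 16.9 CPM, with no marker at 0. The part of these differences in the transporter results was not tested. The labels do not say whether the libraries of a group came from separate cultures, so the p-values measure only the spread between these samples, which may be technical. In bulk RNA of this kind, fewer cells expressing a gene and less RNA per cell cannot be told apart.

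Among the 10 transporters, Slc1a4 and Slc3a2 had the largest increases with Thr starvation and Slc6a9, Slc1a4 and Slc7a1 with Cys starvation. With Thr starvation 8 of the 10 were called, 5 higher (Slc1a4, Slc3a2, Slc6a9, Slc7a1 and Slc7a5) and 3 lower (Slc7a3, Slc38a2 and Slc7a6), where 63.0% of all genes tested were called, 31.1% higher and 31.9% lower. Among the 8693 genes within the range of mean CPM of the 10 transporters that share was 83.0%, to which a count of 8 is close. That range runs from 13.6 CPM (Slc6a9) to 697 CPM (Slc7a5), and the next lowest transporter, Slc1a4, averaged 69.3 CPM. The genes in it are thus not matched in level to the 10 transporters. With Cys starvation 9 of the 10 were called, 8 higher and Slc7a3 lower, against 36.3% of all genes and 59.7% of genes in the same CPM range. Genes called higher with Cys starvation made up 17.5% of all genes and those called lower 18.8%. The median log2 fold change of the 10 transporters was 0.09 with Thr and 0.23 with Cys starvation, beside -0.02 and 0.01 over all genes. Because the list was chosen with earlier results known, these counts and medians do not measure an excess over other genes.

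**Figure D1:**
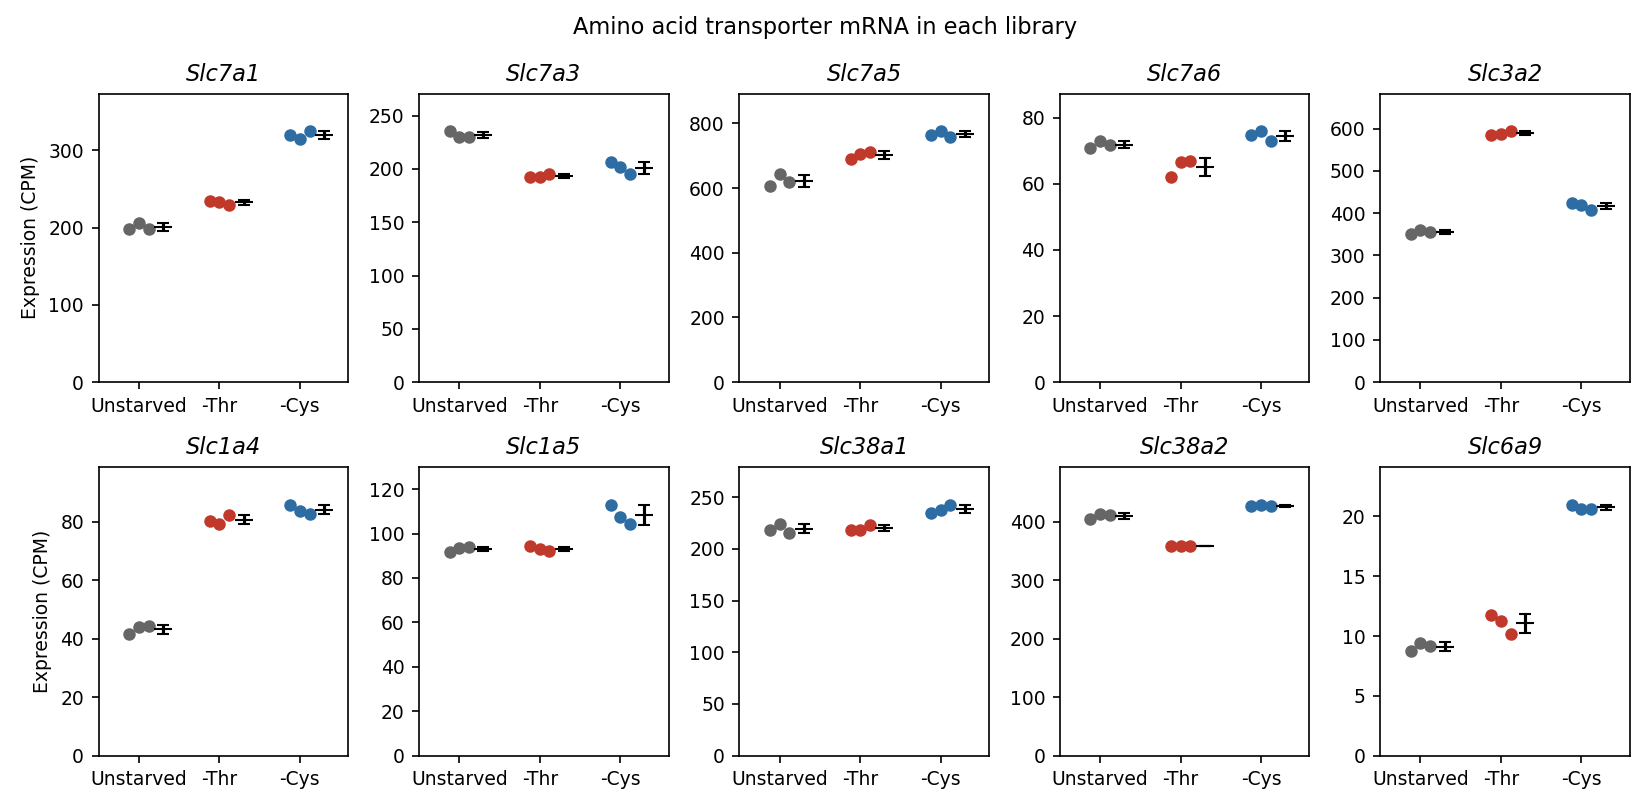
Expression of each transporter in CPM (vertical axes, each from 0) in the 3 unstarved (grey), 3 Thr-starved (red) and 3 Cys-starved (blue) libraries; points are libraries, and the bar at the right of each group is the mean with 1 SD. Slc1a4 is near 80 CPM in both starvations against 41.5 to 44.3 CPM in unstarved cells, Slc3a2 is highest with Thr starvation, and Slc7a1 and Slc6a9 are highest with Cys starvation.

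Slc1a4 encodes ASCT1, a sodium-dependent exchanger of alanine, serine, cysteine and threonine. The gene (ENSMUSG00000020142) lies on the minus strand of chromosome 11 of GRCm38, 20302180 to 20332713. It was at 41.5, 43.9 and 44.3 CPM in the unstarved libraries, 80.4, 79.3 and 82.3 CPM in the Thr-starved and 85.8, 83.6 and 82.8 CPM in the Cys-starved libraries. Both starved groups lay far above the unstarved one and next to each other. The log2 fold change was 0.90 with Thr starvation (SE 0.033, adjusted p = 1.6e-16) and 0.96 with Cys starvation (SE 0.033, adjusted p = 7e-16). The difference between the starvations, -0.06 with a 95% interval from -0.12 to 0.01, did not pass the test (adjusted p = 0.11), although the 3 Thr-starved libraries were all below the 3 Cys-starved ones.

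The start site of Slc1a4 is shown because both starvations raised this gene by a similar amount and its window held the only match, among the 6 transporters with a window, to the core of the CARE element. The core searched was TGATGNAA on both strands, in the RefSeq windows of 300 bases around annotated start sites of GRCm38.p6. The bases from 96 upstream of the start to 4 into the transcript follow, 5′ to 3′ on the minus strand, chr11:20332710-20332809, with the match, which is on the opposite strand, in capitals.
Slc1a4: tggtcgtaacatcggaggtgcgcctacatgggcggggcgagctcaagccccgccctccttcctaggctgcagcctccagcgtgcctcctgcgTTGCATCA
Of 32851 such windows, 1304 (3.97%) held the core. Start sites were matched for 6 of the transporters (Slc1a4, Slc38a2, Slc3a2, Slc6a9, Slc7a1 and Slc7a6), with 10 windows in all, and 1 of the 10 held it. A match is a description of the letters and says nothing of binding in these cells. Only these windows were searched, so the lack of a match does not mean that a gene has no such element elsewhere.

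Slc1a5 encodes ASCT2, the related exchanger that also carries glutamine (ENSMUSG00000001918; chromosome 7, 16781340 to 16798274, plus strand). Its level was 91.9, 93.5 and 93.7 CPM in unstarved, 94.2, 93.1 and 92.3 CPM in Thr-starved and 113.0, 107.3 and 104.3 CPM in Cys-starved libraries. The Thr-starved libraries overlapped the unstarved ones, with a log2 fold change of 0.00 (95% interval -0.06 to 0.06, adjusted p = 0.96). The Cys-starved libraries lay above both other groups, with a change of 0.22 (SE 0.030, adjusted p = 3.9e-06), and the 2 starvations differed by -0.22 (adjusted p = 1.3e-06). Within each library, the log2 ratio of Slc1a4 to Slc1a5 counts moved from -1.11 ± 0.04 in unstarved to -0.21 ± 0.04 in Thr-starved and -0.36 ± 0.03 in Cys-starved libraries (SD, n = 3; exact permutation test of the F statistic over the 3 groups, p = 0.00357, the smallest that 9 libraries in 3 groups allow). The pair thus shifted toward Slc1a4 in both starvations, and the 3 groups of ratios did not overlap.

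The heavy chain Slc3a2 (ENSMUSG00000010095; chromosome 19, 8706882 to 8723369, minus strand) had the largest difference in favour of Thr starvation. It was at 349.7, 359.4 and 354.6 CPM in unstarved, 424.0, 418.4 and 408.2 CPM in Cys-starved and 586.1, 588.6 and 594.2 CPM in Thr-starved libraries. The groups formed separate steps with no overlap. The log2 fold change was 0.73 with Thr starvation (SE 0.021, adjusted p = 1.9e-18) and 0.23 with Cys starvation (SE 0.021, adjusted p = 7.2e-09). Slc3a2 was 41.4% higher in Thr-starved than in Cys-starved cells (log2 0.50, adjusted p = 1.9e-15), the only called difference among the 10 transporters in that direction.

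Slc7a5 encodes LAT1, the light chain that exchanges leucine and other large neutral amino acids for internal glutamine (ENSMUSG00000040010; chromosome 8, 121881150 to 121907694, minus strand). It was at 606.3, 642.2 and 619.2 CPM in unstarved, 689.6, 705.3 and 712.1 CPM in Thr-starved and 763.9, 776.0 and 758.5 CPM in Cys-starved libraries. Both starved groups lay above the unstarved one, as for its heavy chain, but here the Cys-starved libraries were the highest. The changes were 0.17 with Thr (SE 0.021, adjusted p = 1.8e-07) and 0.30 with Cys starvation (SE 0.021, adjusted p = 2.1e-10), and they differed by -0.13 (adjusted p = 1.8e-05).

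Slc7a6 encodes y+LAT2, a light chain that trades internal cationic for external neutral amino acids together with sodium (ENSMUSG00000031904; chromosome 8, 106168857 to 106198706, plus strand). Its level was 70.9, 72.9 and 71.6 CPM in unstarved, 62.1, 66.5 and 67.0 CPM in Thr-starved and 74.6, 76.0 and 73.1 CPM in Cys-starved libraries. Its change with Thr starvation was -0.14 (SE 0.033, adjusted p = 0.00077). With Cys starvation the change was 0.05 (95% interval -0.01 to 0.12, adjusted p = 0.22), which did not pass the test although no Cys-starved library overlapped an unstarved one. The 2 starvations differed by -0.19 (adjusted p = 1.9e-05).

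The balance of heavy chain and light chains was followed as ratios within libraries. The log2 ratio of Slc7a5 to Slc3a2 counts was 0.81 ± 0.02 in unstarved, 0.88 ± 0.03 in Cys-starved and 0.25 ± 0.02 in Thr-starved libraries (SD, n = 3; exact permutation test, p = 0.00357). Per kilobase of exon, Slc3a2 was at 0.458 ± 0.007 of the summed level of 5 measured light chains (Slc7a5, Slc7a6, Slc7a7, Slc7a8 and Slc7a11) in unstarved, 0.454 ± 0.006 in Cys-starved and 0.708 ± 0.006 in Thr-starved libraries. The Cys-starved and unstarved libraries overlapped in this proportion, and the Thr-starved libraries lay above both. Divided by the longest transcript instead, the 3 ratios were 0.508, 0.507 and 0.794. Slc7a5 made up 76.6% of the light chain sum in unstarved, 79.4% in Cys-starved and 80.3% in Thr-starved libraries. Its log2 ratio to Slc7a6 rose from 3.12 ± 0.02 to 3.36 ± 0.01 with Cys and 3.43 ± 0.04 with Thr starvation (exact permutation test, p = 0.00357).

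**Figure D2:**
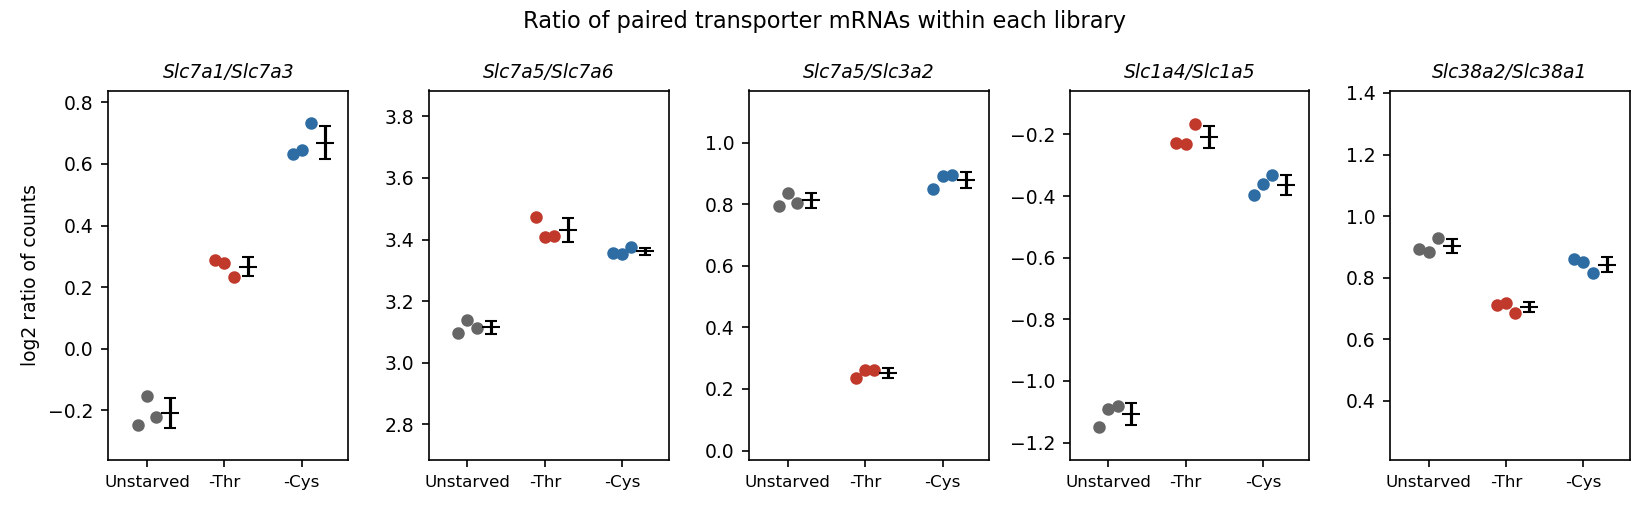
Log2 ratio of the counts of 2 transporters within each library (vertical axes, all spanning the same range) for 5 pairs; grey, red and blue points are unstarved, Thr-starved (-Thr) and Cys-starved (-Cys) libraries, and bars give the mean with 1 SD. Slc7a5/Slc3a2 drops to 0.25 with Thr starvation while Slc7a1/Slc7a3 and Slc1a4/Slc1a5 rise in both starvations.

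Slc7a1 encodes CAT1, the widely expressed carrier of arginine, lysine and ornithine (ENSMUSG00000041313; chromosome 5, 148327410 to 148399904, minus strand). It was at 198.2, 206.4 and 197.6 CPM in unstarved, 234.9, 233.7 and 229.5 CPM in Thr-starved and 320.1, 314.9 and 324.9 CPM in Cys-starved libraries. It rose in both starvations and by far more with Cys. The log2 fold change was 0.67 with Cys (SE 0.024, adjusted p = 1.6e-15) and 0.21 with Thr starvation (SE 0.024, adjusted p = 5.2e-08), a difference of -0.46 (adjusted p = 1e-13).

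Slc7a3 encodes CAT3, a second carrier of cationic amino acids (ENSMUSG00000031297; chromosome X, 101079210 to 101086020, minus strand). Its level was 235.4, 229.7 and 230.1 CPM in unstarved, 192.3, 192.6 and 195.4 CPM in Thr-starved and 206.5, 201.5 and 195.5 CPM in Cys-starved libraries. It was the only one of the 10 genes called lower in both starvations, with changes of -0.26 (SE 0.024, adjusted p = 2.8e-09) and -0.20 (SE 0.024, adjusted p = 6.4e-07). The difference between the starvations was -0.06 (95% interval -0.11 to -0.01, adjusted p = 0.051) and was not called. Without Cys-starved replicate 3 it was -0.08 (adjusted p = 0.014), and without Thr-starved replicate 3 it was -0.06 (adjusted p = 0.047). The log2 ratio of Slc7a1 to Slc7a3 counts changed sign, from -0.21 ± 0.05 in unstarved to 0.27 ± 0.03 in Thr-starved and 0.67 ± 0.05 in Cys-starved libraries (SD, n = 3; exact permutation test, p = 0.00357). The 2 carriers of the same substrates thus moved in opposite directions.

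Slc38a2 encodes SNAT2, a sodium-coupled system A carrier of small neutral amino acids that is known for its induction in cells short of amino acids (ENSMUSG00000022462; chromosome 15, 96687392 to 96699730, minus strand). It was at 405.0, 414.3 and 411.2 CPM in unstarved and at 358.2, 358.7 and 359.1 CPM in Thr-starved libraries, which lay below all others. The Cys-starved libraries were at 426.9, 429.6 and 427.0 CPM. The log2 fold change of Slc38a2 was -0.19 with Thr starvation (SE 0.020, adjusted p = 1e-08) and 0.06 with Cys starvation (SE 0.020, adjusted p = 0.018), both called, so that the 2 starvations differed by -0.25 (adjusted p = 1.2e-10). The increase with Cys did not hold everywhere. It was 0.05 without unstarved replicate 1 (adjusted p = 0.094), 0.06 without Cys-starved replicate 2 (adjusted p = 0.061) and 0.02 with the deposited size factors (adjusted p = 0.52), none of which passed the test.

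Slc38a1 encodes SNAT1, the other system A carrier of the group (ENSMUSG00000023169; chromosome 15, 96571418 to 96642913, minus strand). It was at 217.9, 224.4 and 215.9 CPM in unstarved, 218.7, 217.9 and 223.2 CPM in Thr-starved and 234.9, 237.9 and 242.8 CPM in Cys-starved libraries. The Thr-starved and unstarved libraries overlapped (log2 fold change 0.00, 95% interval -0.05 to 0.05, adjusted p = 0.90). With Cys starvation the change was 0.12 (SE 0.024, adjusted p = 0.0003), and the starvations differed by -0.12 (adjusted p = 0.00017). The log2 ratio of Slc38a2 to Slc38a1 counts was 0.90 ± 0.02 in unstarved, 0.84 ± 0.03 in Cys-starved and 0.71 ± 0.02 in Thr-starved libraries (SD, n = 3, exact permutation test, p = 0.00357). All 5 ratios tested had this smallest p, and Benjamini-Hochberg adjustment over the 5 left it at 0.00357. The pairs were chosen with earlier results of these data known, and ratios of other gene pairs were not tested. How often other pairs would reach this p is therefore not known. Of all genes, 63.0% were called with Thr and 36.3% with Cys starvation, so the p does not set these pairs apart.

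Slc6a9 encodes GLYT1, a sodium- and chloride-coupled glycine transporter (ENSMUSG00000028542; chromosome 4, 117834506 to 117875198, plus strand). Its level was 8.72, 9.45 and 9.13 CPM in unstarved, 11.8, 11.2 and 10.2 CPM in Thr-starved and 21.0, 20.6 and 20.6 CPM in Cys-starved libraries. The Cys-starved libraries stood well above all others. The log2 fold change with Cys was 1.19 (SE 0.061, adjusted p = 8.8e-13), an increase of 128% and the only change of at least 1 on the log2 scale among the 10 genes, where 1.47% of all genes were called with such a change. With Thr starvation 0 of the 10 reached that size, beside 13.2% of all genes, and between the starvations 0, beside 11.4%. The Thr change of Slc6a9 was 0.28 (SE 0.065, adjusted p = 0.00076), and the starvations differed by -0.91 (adjusted p = 6e-12). Slc6a9 shares 1429 exon bases with Ccdc24, 511 with Gm17114 and 46 with B4galt2, all on the opposite strand. The library kit keeps strand, but how the counting treated strand and overlaps is not stated, so reads of these genes may be divided differently from their source. Of these, Ccdc24 had 98 and B4galt2 4452 counts over all libraries, against 7341 for Slc6a9. Gm17114 was not among the genes counted, so its reads could not be assessed.

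**Figure D3:**
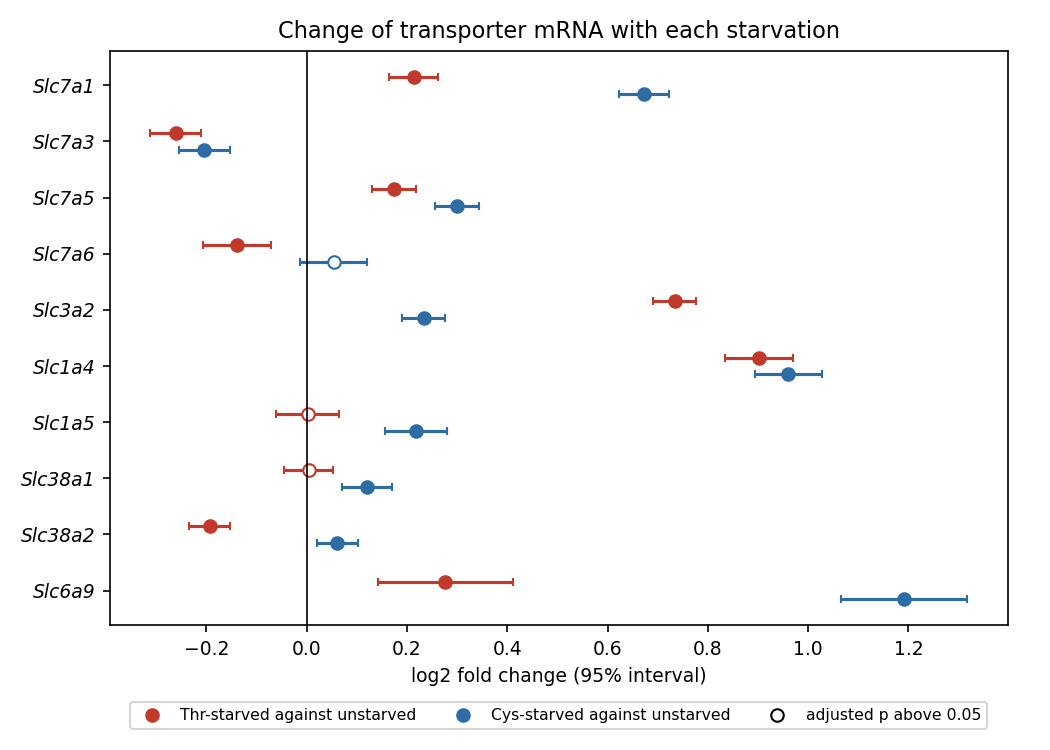
Log2 fold change of each transporter (horizontal axis) with its 95% interval for Thr-starved (red) and Cys-starved (blue) against unstarved libraries, n = 3 per group; open circles have an adjusted p above 0.05. Slc3a2 has the largest excess of the Thr over the Cys change, Slc6a9 and Slc7a1 the largest excess of Cys over Thr, and Slc38a2 lies on opposite sides of 0.

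Set directly against each other, the 2 starvations differed for 8 of the 10 transporters, where 62.0% of all genes and 83.3% of genes in the same CPM range were called. Slc3a2 was higher with Thr starvation (30.4% of all genes were called in that direction), and Slc7a1, Slc7a5, Slc7a6, Slc1a5, Slc38a1, Slc38a2 and Slc6a9 were higher with Cys starvation (31.6% of all genes). For each of the 10 transporters the Thr-starved and Cys-starved libraries occupied separate ranges, as they did for 65.8% of all genes. The median difference was -0.16 over the 10 transporters and -0.02 over all genes. Together, the 10 genes took 0.221 to 0.226% of all counts in unstarved, 0.247 to 0.251% in Thr-starved and 0.273 to 0.277% in Cys-starved libraries, which are separate ranges. These are shares of raw counts without TMM scaling. The TMM factors were 0.983 to 0.993 in unstarved, 0.976 to 0.979 in Thr-starved and 1.033 to 1.036 in Cys-starved libraries. After that scaling the 2 starvations lie closer together than these shares.

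To compare levels between genes, CPM was divided by the exon length in kilobases. In unstarved cells the order was Slc7a5 (168 ± 4.91), Slc3a2 (100 ± 1.37), Slc7a3 (61.2 ± 0.84), Slc38a2 (46.4 ± 0.53), Slc1a5 (22.3 ± 0.24), Slc7a1 (17.4 ± 0.43), Slc7a6 (15.7 ± 0.22), Slc38a1 (12.7 ± 0.26), Slc1a4 (11.01 ± 0.39) and Slc6a9 (1.77 ± 0.07 CPM per kilobase, SD, n = 3 each). No neighbours in this order overlapped in their libraries. With Thr starvation Slc1a4 moved from the ninth to the sixth place, at 20.5 ± 0.38 CPM per kilobase, where it overlapped Slc7a1 at 20.2 ± 0.25. With Cys starvation Slc7a1 took the fifth place at 27.7 ± 0.44 CPM per kilobase, ahead of Slc1a5 at 25.9 ± 1.06. The order depends on the length used, and with the longest transcript 3 of the 10 genes changed rank in unstarved cells. On that length Slc3a2 ranked above Slc7a5 with Thr starvation, at 210 ± 1.46 against 200 ± 3.28 CPM per kilobase.

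For each transporter, the genes with the most similar course over the 9 libraries were found as those with the smallest root mean square distance of log2(CPM + 0.5), centred on the gene's mean, among the 11400 genes that averaged 5 CPM or more. The nearest to Slc1a4 were Syde1 (distance 0.053) and Cth (0.056), the latter encoding cystathionine gamma-lyase of the transsulfuration pathway. Slc3a2 ran closest to Necap1 (0.022) and Ect2 (0.022), and Slc7a1 to Alkbh4 (0.048) and Zfp493 (0.048). For Slc7a3 they were Mlec (0.020) and Slc38a4 (0.026), the latter encoding another sodium-coupled carrier of neutral amino acids. Slc6a9 had no neighbour as close, with Hhip at 0.125 and Polr2a at 0.128. Those of the remaining genes were Mrps2 and Zc3hav1 for Slc7a5, Dhx30 and Slc39a6 for Slc7a6, Sptlc2 and Vdac3 for Slc1a5, Cnot10 and Klf9 for Slc38a1, and Ube2r2 and Nudt5 for Slc38a2, at distances of 0.012 to 0.026.

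Of 30 other amino acid transporters of the plasma membrane that were listed, 20 had counts. Thr starvation called 3 of these higher and 9 lower, with a median log2 fold change of -0.21, beside 63.0% of all genes called. Cys starvation called 4 higher and 6 lower, with a median of 0.00, beside 36.3% of all genes. The 12 of 20 called with Thr starvation are near the share of all genes. Slc36a4, a carrier of proline and tryptophan, had increases of 0.77 in Thr-starved (adjusted p = 7e-06) and 0.47 in Cys-starved libraries (adjusted p = 0.0039). Those of Slc43a2 (LAT4), a facilitative carrier of large neutral amino acids, were 0.66 (adjusted p = 3.3e-11) and 0.28 (adjusted p = 8.8e-05).

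Slc6a6, the taurine transporter, fell from 322 ± 7.67 CPM in unstarved to 99.3 ± 2.98 CPM in Thr-starved and 265 ± 1.64 CPM in Cys-starved libraries, which is -1.70 (adjusted p = 5.9e-23) and then -0.28 (adjusted p = 8.7e-09) on the log2 scale. Slc38a3 (SNAT3), a glutamine transporter, fell from 2.69 ± 0.18 CPM to 0.591 ± 0.020 and 1.98 ± 0.12 CPM, changes of -2.19 (adjusted p = 5.1e-11) and -0.44 (adjusted p = 0.012). Both were lower with Thr than with Cys starvation, with differences of -1.42 (adjusted p = 2.1e-21) and -1.75 (adjusted p = 4.2e-09). Without Cys-starved replicate 3 the Cys change of Slc38a3 was -0.39 and was not called (adjusted p = 0.054). Slc7a11 (xCT), the light chain that imports cystine, was higher with Cys (0.55, adjusted p = 9.8e-08) and lower with Thr starvation (-0.21, adjusted p = 0.0045), although its Thr-starved and unstarved libraries overlapped. Between the starvations, 3 of the 20 were called higher and 8 lower with Thr, which is no more than the 62.0% of all genes called. Without Thr-starved replicate 1, 7 rather than 11 of them were called in that comparison.

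**Figure D4:**
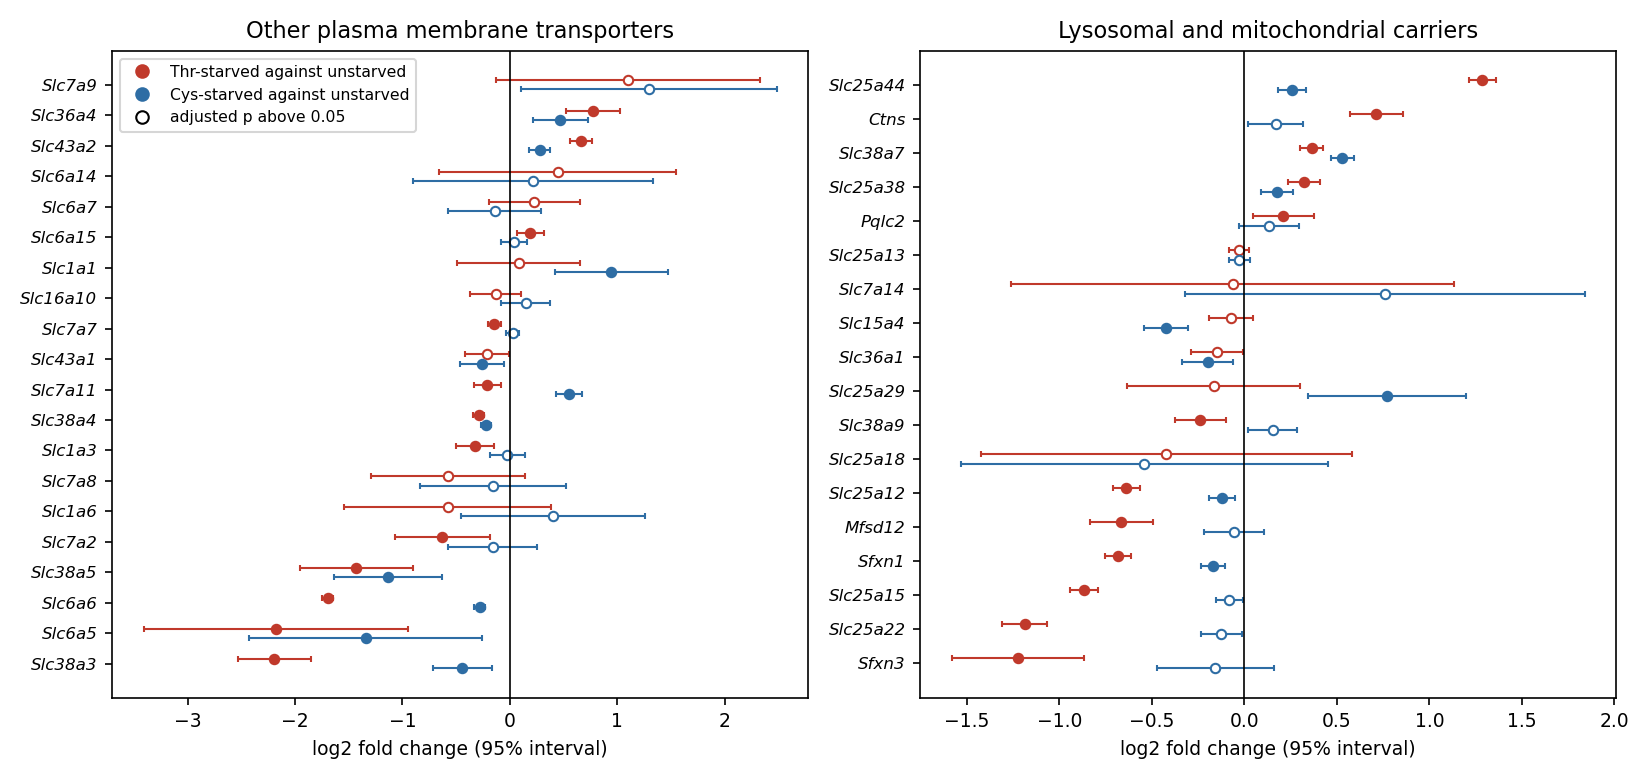
Log2 fold change with its 95% interval (horizontal axes) of 20 other plasma membrane transporters (left) and 18 lysosomal and mitochondrial carriers (right) in Thr-starved (red) and Cys-starved (blue) against unstarved libraries, n = 3 per group, ordered by the Thr change; open circles have an adjusted p above 0.05. With Thr starvation Slc6a6 is at -1.70, Slc38a3 at -2.19 and Slc25a44 at 1.29.

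Among amino acid carriers of lysosomes and mitochondria, 18 of 19 listed had counts. With Thr starvation 5 were called higher and 7 lower (median -0.16), and with Cys starvation 4 higher and 4 lower (median -0.04), shares near the 63.0% and 36.3% of all genes that were called. Slc25a44, the mitochondrial carrier of branched-chain amino acids, went from 26.3 ± 0.05 CPM in unstarved to 64.2 ± 0.79 CPM in Thr-starved and 31.5 ± 0.79 CPM in Cys-starved libraries (log2 1.29, adjusted p = 1.5e-18, and 0.26, adjusted p = 8.4e-06). Ctns, the lysosomal exporter of cystine, rose by 0.71 in Thr-starved cells (adjusted p = 4.6e-09) and had a change of 0.17 with Cys starvation (adjusted p = 0.069). Its Cys-starved libraries lay above the unstarved ones. The Cys change of Ctns was called when only the 2 groups compared were fitted (adjusted p = 0.045) and without unstarved replicate 3 (adjusted p = 0.046). It was also called without Thr-starved replicate 1 or Thr-starved replicate 3 (adjusted p = 0.048 each).

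The mitochondrial glutamate carrier Slc25a22 and the sideroflexin Sfxn3 fell with Thr starvation, with changes of -1.19 (adjusted p = 3.6e-14) and -1.22 (adjusted p = 1.6e-06), and had changes of -0.13 (adjusted p = 0.071) and -0.16 (adjusted p = 0.47) in Cys-starved cells. With the deposited size factors the Cys change of Slc25a22 was -0.17 and was called (adjusted p = 0.015). Slc38a7 (SNAT7), which moves glutamine out of lysosomes, rose in both, by 0.53 without Cys (adjusted p = 5.9e-12) and by 0.36 without Thr (adjusted p = 3.6e-10). With Cys starvation Slc25a29, a mitochondrial carrier of basic amino acids, rose by 0.77 (adjusted p = 0.0047), and the lysosomal carriers Slc15a4 and Slc36a1 fell, with changes of -0.42 (adjusted p = 4.3e-06) and -0.20 (adjusted p = 0.021). The fall of Slc36a1 was not called without unstarved replicate 1 (adjusted p = 0.11) or unstarved replicate 3 (adjusted p = 0.053). It was also not called without Cys-starved replicate 2 (adjusted p = 0.081) or Cys-starved replicate 3 (adjusted p = 0.061). Between the starvations 4 of the 18 were higher and 9 lower with Thr, where 62.0% of all genes were called. The largest of these differences were those of Slc25a44 (1.03, adjusted p = 6.7e-17) and Ctns (0.54, adjusted p = 2.6e-07) upward and of Sfxn3 (-1.07, adjusted p = 1.2e-05) and Slc25a22 (-1.06, adjusted p = 3.3e-13) downward.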

How the data were processed

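The 10 transporters, the 2 further lists and the pairs were chosen with earlier results of these data known. Poly(A) RNA of 9 E14 samples was sequenced from both ends (43 bases each). The authors mapped the reads to GRCm38 with STAR 2.7.4a, used HTSeq to count them for each gene, and deposited the raw counts. The signal values of a second deposited table are these counts divided by a size factor per library that the authors computed with DESeq2. The raw counts were tested in R 4.3.3 with edgeR 4.0.16 (TMM, quasi-likelihood F test, all 9 libraries in a single fit, genes with a total count of at least 1), and the second table served only an alternative scaling. Ratios were taken as log2 of the raw counts within a library, and tested by exact enumeration of 1680 groupings. Depth was 48763102 to 74962733 counts per library. Even counts made up 67.8% of the 28226 values from 1 to 20, and the cause was not tested.

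Symbols, positions, exon lengths and overlaps came from GENCODE M21, which named 20171 of 20189 genes, and start site windows (250 bases before to 50 after) from RefSeq. No transporter of the 10 other than Slc6a9, where it overlaps other genes, had a copy of at least 95% identity over 300 bases (BLAST 2.17.0). Besides the 10 genes, the text names from each further list and comparison the 2 largest called increases and decreases at a mean of at least 1 CPM, and for each transporter the 2 genes of most similar course.

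Alternatives were DESeq2 1.42.0, RLE normalization, the deposited size factors, filterByExpr, fits of only the 2 groups compared, a replicate block, a minimum of 1 on the absolute log2 scale, the longest transcript as length, and each fit without 1 library.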

Additional observations from a re-analysis of the deposited data

Results flagged for a closer look

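The effects of Thr and Cys starvation differed by edgeR's test for 8 of the 10 transporters and for Slc7a11. The difference, Thr change minus Cys change on the log2 scale, was 0.50 for Slc3a2 and -0.91 for Slc6a9, -0.46 for Slc7a1, -0.25 for Slc38a2, -0.22 for Slc1a5, -0.19 for Slc7a6, -0.13 for Slc7a5 and -0.12 for Slc38a1. For Slc7a11 it was -0.76 (adjusted p = 1.2e-10). Slc38a2 and Slc7a11 were called in opposite directions, lower with Thr and higher with Cys starvation. The Cys call of Slc38a2 was lost with the deposited size factors (adjusted p = 0.52). It was also lost without unstarved replicate 1 (adjusted p = 0.094) or Cys-starved replicate 2 (adjusted p = 0.061). For Slc7a11 the Thr-starved and unstarved libraries overlapped. The 2 effects of a gene share the unstarved libraries, and 62.0% of all genes were called in this comparison.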

How the results depend on the processing

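Of 450 log2 fold changes of the 10 transporters under the alternatives, 441 kept their direction and their side of the threshold. A required absolute log2 fold change of at least 1 left 0, 1 and 0 of the 10 transporters with Thr, Cys and Thr against Cys starvation. It left 4, 2 and 2 of the 20 other plasma membrane carriers and 3, 0 and 3 of the 18 intracellular ones. Of all genes, 13.2%, 1.47% and 11.4% were called with such a change. The 2 other carriers with Cys starvation were Slc38a5 and Slc6a5, both lower, at only 1.06 and 0.27 CPM in unstarved libraries. Both were also among the 4 with Thr starvation. Leaving out 1 library moved the Thr change of Slc1a5 between -0.0027 and 0.012 and that of Slc38a1 between -0.0075 and 0.027, so neither has a direction, and that of Slc25a29, near 1 CPM, between -0.48 and 0.038. The counts of called transporters without 1 library stayed at 8 with Thr, 8 to 9 with Cys and 8 to 9 between the starvations, and for the other plasma membrane carriers at 11 to 13, 7 to 10 and 7 to 11. Libraries with the same number, each centred on its group mean, correlated at -0.244 to 0.106 across genes, so the numbers were not taken to pair the samples. With the replicate block 8, 9 and 8 of the 10 transporters were called, as without it, and all 5 ratios passed with an adjusted p of 0.0278. The deposited size factors shifted the median of all genes by -0.042 with Cys starvation, which ended the call of Slc38a2 there. Depth limits the low genes, such as Slc38a3, more than the 10 transporters.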
